A study of Mus musculus with 10 samples.

Results

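Regenerating muscle holds nerve as well as muscle. *Mbp*, *Pmp22*, *Sox10*, *S100b*, *Prx*, *Mag*, *Egr2* and *Ncam1* are 8 genes known from Schwann cells and nerve, and they were picked by symbol from the 25700 genes in the read counts of 10 TA (tibialis anterior) muscles. All 8 were matched by Ensembl identifier and all 8 passed the filter on low counts that left 14410 genes to test. The muscles came from 12-week-old male C57BL/6 mice, 6 days after cardiotoxin (CTX), a snake toxin that destroys muscle fibers, was injected into the TA. In 5 mice, labelled Pax7Cre and wild type, only the Cre recombinase was carried, expressed from Pax7, a gene of muscle stem cells. The other 5, labelled miR-501KO and miR-501 -/-, carried the same Cre together with a floxed miR-501 allele on their only X chromosome (Pax7Cre miR-501fl/Y, here miR-501ΔMP). The comparison asks what the loss of miR-501 changed in the muscle as a whole at this time. Cre acts where Pax7 is or was active, so miR-501 in other cells of the muscle may be intact. Whether Schwann cells lost or kept miR-501 was not measured here.

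Schwann cells wrap the axons of peripheral nerve. Those on large axons build myelin, a stack of their own membrane held together by a few abundant proteins, and those on thin axons and at the neuromuscular junction do not. Sox10 keeps the lineage, Egr2 (Krox20) turns on the myelin genes when an axon signals through the ErbB receptors, and the myelin proteins follow. After nerve injury Schwann cells lower myelin genes and raise genes of immature and repair cells, among them Ncam1 and Ngfr. Several of these genes have a further life in muscle: *Ncam1* is carried by muscle stem cells and by regenerating and denervated fibers, *Egr2* is also an immediate early gene of many cell types, and *Pmp22* is expressed by fibroblasts and endothelium.

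Library totals were between 18609222 and 24753258 counts per mouse, and 6.59% to 13.98% of counts were on mitochondrial genes. Mature fiber genes such as *Ckm* and regenerating fiber genes such as *Myh3* were abundant in every library, in accord with the labelled tissue and time. Pax7Cre mouse 2 stood apart, with a summed level of 10 mature fiber markers of 44343 CPM (counts scaled to library size) against 16987 to 27987 CPM in the other Pax7Cre mice. Pax7Cre mouse 4 was at the other end. The miR-501 precursor was not analysed here, so the deletion itself was not checked. *Clcn5*, whose intron holds the miRNA, was at 49.9 to 69.3 CPM in Pax7Cre and 62.6 to 67.0 CPM in miR-501ΔMP mice.

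The mature miRNA is shown because a direct effect would run through its seed, bases 2 to 8 counted from the 5′ end and printed in capitals. RefSeq places miR-501-3p on GRCm38.p6 at chrX:7241270-7241291, minus strand, and miR-500-3p, which shares the seed, at chrX:7237695-7237716 on the same strand.
miR-501-3p: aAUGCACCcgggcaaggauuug
miR-500-3p: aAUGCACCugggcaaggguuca
The seed match GGTGCAT, read on the transcript strand, was looked for in the 3′ untranslated regions of GENCODE M21. It was in 0 of the 8 genes, whose longest annotated regions ran from 535 bases in *Mag* to 4701 bases in *Prx*. Of the 14074 genes tested that have an annotated region, 1159 held it (8.24%). The absence of these letters says nothing about indirect effects or other kinds of site.

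None of the 8 genes was called different between the genotypes. With edgeR's quasi-likelihood test and Benjamini-Hochberg adjustment over all 14410 genes, the adjusted p of each rounded to 1.00. No gene of the whole table was called (0% of genes), and DESeq2's Wald test called 0 as well. At an unadjusted p under 0.05 edgeR had 55 genes higher and 96 lower in miR-501ΔMP muscle, which is 1.05% of genes (0.382% higher, 0.666% lower), and DESeq2 had 52 and 98; 0 of the 8 nerve genes were among them with either tool. Evenly spread p-values would put 720.5 genes under 0.05, so the shares of all genes given here lie far below that. A list count near these shares therefore says little. Without Pax7Cre mouse 2 edgeR had 267 genes higher and 186 lower, and without Pax7Cre mouse 4 it had 228 and 242. The ranges of the groups were apart in 0.139% of all genes and in 0 of the 8. The fold changes split evenly, 4 higher and 4 lower, with a median log2 fold change of -0.05 beside -0.0042 over all genes tested. The 95% intervals reached from 0.607-fold (*S100b*) to 1.41-fold (*Sox10*) at their widest, while that of *Pmp22* ran only from 0.834-fold to 1.02-fold, so the size of change that these mice can show differs between the genes. In whole muscle, fewer Schwann cells and less RNA per Schwann cell cannot be told apart.

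**Figure D1:**
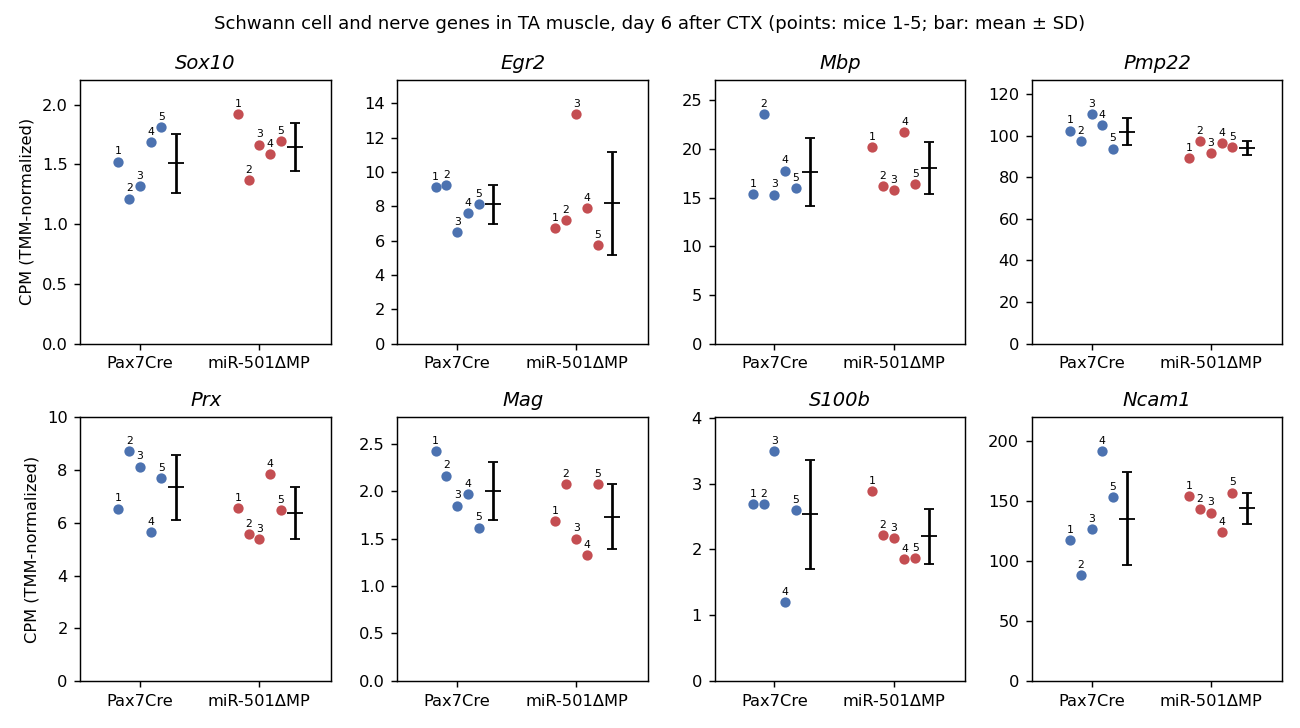
CPM (vertical axis, from 0) of the 8 genes in each mouse, with Pax7Cre mice in blue and miR-501ΔMP mice in red, numbered 1 to 5, and the mean ± SD of each group as a bar. The groups overlap in every panel. *Egr2* has 1 high miR-501ΔMP mouse at 13.4 CPM, and *Ncam1* is spread more widely in Pax7Cre (88.1 to 191 CPM) than in miR-501ΔMP mice (124 to 157 CPM).

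Sox10 is the transcription factor that marks the Schwann lineage at every stage. Its gene (ENSMUSG00000033006, chr15:79154908-79165240, minus strand, GRCm38) was at 1.52, 1.21, 1.32, 1.68 and 1.81 CPM in Pax7Cre mice 1 to 5. In miR-501ΔMP mice 1 to 5 it was at 1.92, 1.37, 1.67, 1.59 and 1.70 CPM. The highest mouse was miR-501ΔMP mouse 1 and the lowest Pax7Cre mouse 2, and the other values lay among each other. Its log2 fold change was 0.12 (SE 0.17, 95% interval -0.25 to 0.50), with an unadjusted p of 0.492 in edgeR. The gene had only 23 to 48 reads per mouse. Counting alone gives a coefficient of variation (CV) of about 17.0% at this depth, and the CV seen over all mice was 14.2%, so differences between mice of about that size could not be told from counting error.

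Egr2 drives the myelin genes downstream of Sox10. Its gene (ENSMUSG00000037868, chr10:67535475-67542188, plus strand) was at 9.14, 9.23, 6.50, 7.62 and 8.13 CPM in the Pax7Cre mice. It was at 6.72, 7.17, 13.4, 7.89 and 5.72 CPM in the miR-501ΔMP mice. Both the highest and the lowest value were in the miR-501ΔMP group, and mouse 3 of that group was above all others. The group means were 8.12 ± 1.14 and 8.18 ± 3.01 CPM (SD, n = 5 each). The log2 fold change was 0.010 (SE 0.20, 95% interval -0.43 to 0.45). It became -0.24 without miR-501ΔMP mouse 3, -0.06 without Pax7Cre mouse 3 and -0.01 without Pax7Cre mouse 4, and no direction can be given.

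Mbp is a cytoplasmic protein that zips the inner membrane faces of compact myelin together. Its gene (ENSMUSG00000041607, chr18:82475146-82585637, plus strand) was at 15.4, 23.6, 15.3, 17.8 and 16.0 CPM in Pax7Cre mice. It was at 20.2, 16.2, 15.8, 21.7 and 16.4 CPM in miR-501ΔMP mice. Pax7Cre mouse 2 and miR-501ΔMP mice 1 and 4 were above the rest, which lay between 15.3 and 17.8 CPM in both groups. The group means were 17.6 ± 3.49 and 18.1 ± 2.71 CPM (SD, n = 5 each), and the log2 fold change was 0.04 (SE 0.14, 95% interval -0.26 to 0.33). Its sign turned without Pax7Cre mouse 1, Pax7Cre mouse 3, miR-501ΔMP mouse 1 or miR-501ΔMP mouse 4, with a lowest value of -0.04. The Mbp locus also makes longer Golli transcripts outside myelin, and the gene count holds both.

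Pmp22 is a membrane protein of compact myelin whose dose is tightly bound to nerve health, since an extra copy or a lost copy causes inherited neuropathy. Its gene (ENSMUSG00000018217, chr11:63128982-63159547, plus strand) was at 103, 97.4, 110.5, 105 and 93.8 CPM in Pax7Cre mice. It was at 89.5, 97.6, 91.8, 96.5 and 94.5 CPM in miR-501ΔMP mice. The 3 highest mice were all Pax7Cre and the 2 lowest miR-501ΔMP, but the groups overlapped between 93.8 and 97.6 CPM. For *Pmp22* the log2 fold change was -0.12 (SE 0.07, 95% interval -0.26 to 0.03), the most precise of the 8, with an unadjusted p of 0.108 in edgeR. The exact two-sided permutation test over the 252 assignments of the mice gave p = 0.0556, where the smallest p it allows is 0.00794. Pmp22 was also the steadiest gene, with a CV over all mice of 6.56%.

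Prx (periaxin) lines the outer surface of the myelin sheath, where it links the Schwann cell to its basal lamina with Drp2. Its gene (ENSMUSG00000053198, chr7:27499324-27520214, plus strand) was at 6.54, 8.71, 8.14, 5.66 and 7.69 CPM in Pax7Cre mice. It was at 6.56, 5.57, 5.37, 7.84 and 6.48 CPM in miR-501ΔMP mice. The 2 lowest mice were miR-501ΔMP and the 2 highest Pax7Cre, with Pax7Cre mouse 4 close to the lowest. The log2 fold change was -0.20 (SE 0.14, 95% interval -0.52 to 0.11) and the unadjusted p in edgeR 0.180. Mag, an adhesion protein on the membrane facing the axon, is encoded on the same chromosome (ENSMUSG00000036634, chr7:30899176-30914873, minus strand). It was at 2.42, 2.16, 1.85, 1.97 and 1.62 CPM in Pax7Cre and at 1.68, 2.08, 1.50, 1.32 and 2.08 CPM in miR-501ΔMP mice. Mag was highest in Pax7Cre mice 1 and 2 and lowest in miR-501ΔMP mice 4 and 3, with the remaining mice mixed. Its log2 fold change was -0.21 (SE 0.18, 95% interval -0.61 to 0.19) from 25 to 54 reads per mouse.

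S100b is a calcium-binding protein used to stain Schwann cells, terminal ones included. Its gene (ENSMUSG00000033208, chr10:76253853-76261159, plus strand) was at 2.69, 2.69, 3.49, 1.20 and 2.60 CPM in Pax7Cre mice. It was at 2.88, 2.22, 2.17, 1.85 and 1.86 CPM in miR-501ΔMP mice. Pax7Cre mice held both the highest and the lowest value, mice 3 and 4, a span of 2.90-fold. The log2 fold change was -0.19 (SE 0.25, 95% interval -0.72 to 0.34), the widest interval of the 8. It moved to -0.38 without Pax7Cre mouse 4 and to -0.05 without Pax7Cre mouse 3, and stayed below 0 in each of the 10 fits that left out 1 mouse.

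Ncam1 is a cell adhesion molecule of non-myelinating and terminal Schwann cells, of axons and of muscle cells. Its gene (ENSMUSG00000039542, chr9:49502136-49798925, minus strand) was at 117, 88.1, 127, 191 and 153 CPM in Pax7Cre mice. It was at 154, 143, 140.3, 124 and 157 CPM in miR-501ΔMP mice. The 5 miR-501ΔMP mice sat inside the range of the Pax7Cre mice, whose mouse 2 was lowest and mouse 4 highest of all. The group means were 135 ± 38.9 and 144 ± 13.0 CPM (SD, n = 5 each), with a log2 fold change of 0.09 (SE 0.17, 95% interval -0.27 to 0.45). Without Pax7Cre mouse 2 it was -0.03 and without Pax7Cre mouse 4 it was 0.25. In GENCODE M21 the antisense gene Gm11149 overlaps its exons and Gm15541 those of Prx, and reads of such pairs can be told apart only if strand was used in counting, which is not given in the sources used here.

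**Figure D2:**
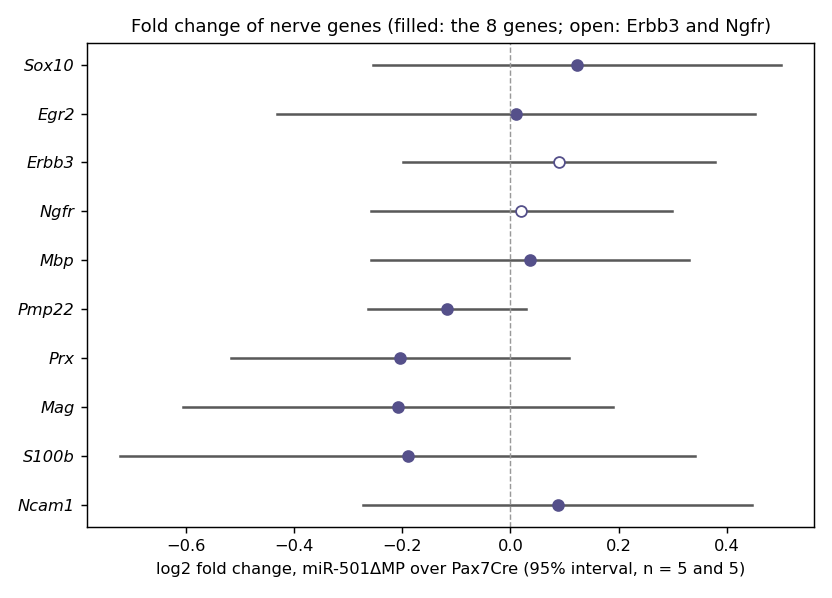
Log2 fold change of miR-501ΔMP over Pax7Cre (horizontal axis) with its 95% interval for the 8 genes (filled) and for *Erbb3* and *Ngfr* (open), from edgeR, 5 mice against 5. Every interval crosses 0. The interval of *Pmp22* is the narrowest and that of *S100b* the widest.

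The genes differed far more from each other than between genotypes. Per kb of annotated exon, *Pmp22* had the highest mean level (41.6 ± 2.73 CPM per kb, SD, n = 10), above 93.3% of the genes tested. *Ncam1* followed at 16.1 ± 3.20 CPM per kb. In all 10 mice *Pmp22* was above *Ncam1* and *Ncam1* above *Egr2*, with ranges that did not overlap. *Egr2* (2.40 CPM per kb), *Mbp* (2.10 CPM per kb), *S100b* (1.59 CPM per kb) and *Prx* (1.23 CPM per kb) formed a middle group in which each gene's range overlapped the next. *Egr2* was above *Mbp* in 6 of 10 mice. *Prx* was 2.37 times *Sox10* and above it in all 10 mice without overlap. *Sox10* (0.518 CPM per kb) and *Mag* (0.459 CPM per kb) were lowest, and their order held in 6 of 10 mice. Lengths are the union of all annotated exons, so a gene whose muscle transcripts use only part of them, as *Mbp* with its Golli exons may, is set too low on this scale.

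**Figure D3:**
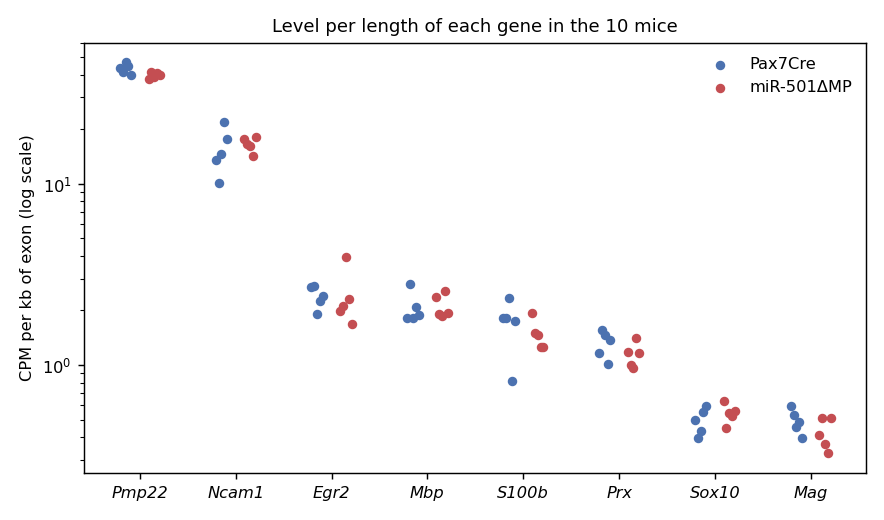
Level per length (CPM per kb of annotated exon, log axis) of the 8 genes in each of the 10 mice, in order of the mean. *Pmp22* and *Ncam1* stand above the rest without overlap, *Egr2* to *Prx* overlap with their neighbours, and *Sox10* and *Mag* share the lowest level.

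No listed myelin gene outside the 8 that edgeR tested had a small unadjusted p between genotypes. Of 15 other genes of peripheral myelin, 11 passed the filter, 0 were higher and 0 lower at an unadjusted p under 0.05, and the median log2 fold change was 0.07. Over all genes 1.05% were past that threshold in either direction, so 0 of 11 is near the background. *Cnp*, an enzyme of non-compact myelin, was at 26.8 ± 1.63 and 26.8 ± 2.65 CPM, and *Drp2*, the partner of Prx, at 37.2 ± 4.26 and 40.2 ± 4.21 CPM in Pax7Cre and miR-501ΔMP mice (SD, n = 5 each). *Gldn*, which gathers sodium channels at the node of Ranvier, was at 1.96 ± 0.530 and 2.05 ± 0.502 CPM. All 3 differed by less than the spread within a group. *Ugt8a*, below the filter with 3 to 8 reads per mouse, was at 0.332 ± 0.107 and 0.194 ± 0.0628 CPM. The exact permutation test gave p = 0.0476 for it, unadjusted.

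Among 18 receptors, ligands and transcription factors of the Schwann lineage, 12 passed the filter and 0 had an unadjusted p under 0.05 in either direction, against the same 1.05% of all genes. *Erbb3*, the receptor for axonal neuregulin, was at 26.1 ± 5.42 and 27.8 ± 3.15 CPM, and *Ngfr*, the low-affinity neurotrophin receptor, at 7.63 ± 1.51 and 7.74 ± 0.231 CPM (SD, n = 5 each). *Ngfr* was spread over 6.27 to 9.51 CPM in Pax7Cre and only 7.44 to 8.0 CPM in miR-501ΔMP mice. Its log2 fold change of 0.02 turned to -0.04 without Pax7Cre mouse 1, -0.04 without Pax7Cre mouse 2 and -0.01 without Pax7Cre mouse 5. The 3 most abundant genes of the list, *Zeb2*, *Lama2* and *Itga6*, had log2 fold changes of -0.09, 0.05 and 0.01, and muscle, stromal and endothelial cells express them too.

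Among the nerve lists, that of non-myelinating and terminal Schwann cell genes, which also holds *Ncam1* and *Ngfr*, had the most genes with a small unadjusted p. Of its 14 genes, 12 passed the filter, and 3 were lower and 0 higher at an unadjusted p under 0.05, with 0 called after adjustment (adjusted p of 1.00 each, edgeR). Over all genes 0.666% were lower at that threshold. The lists were chosen with earlier results of these data known, so these counts are a description and not a test of the list. The median log2 fold change of the list was -0.11. In the 10 fits that left out 1 mouse, *Chl1* kept an unadjusted p under 0.05 in 9, *Scn7a* in 5 and *Apod* in 4. Only *Scn7a* kept it without Pax7Cre mouse 2, and only *Chl1* without Pax7Cre mouse 3 or miR-501ΔMP mouse 1, 4 or 5. *Scn7a*, a sodium channel of non-myelinating Schwann cells, was at 45.5, 44.0, 56.9, 49.4 and 49.8 CPM in Pax7Cre and at 40.1, 45.2, 45.2, 41.9 and 42.8 CPM in miR-501ΔMP mice. Every Pax7Cre mouse but mouse 2 was above every miR-501ΔMP mouse. Its log2 fold change was -0.19 (SE 0.08, unadjusted p = 0.0307 in edgeR), and without Pax7Cre mouse 3 it was -0.13. *Apod*, an apolipoprotein of endoneurial and other stromal cells, had a log2 fold change of -0.31 (SE 0.14), with 2 Pax7Cre mice at 242 and 249 CPM and the other 8 mice between 135 and 188 CPM. *Matn2*, a matrix protein and also among the most abundant genes of this list, was at 85.3 ± 14.2 and 81.3 ± 8.34 CPM (SD, n = 5 each).

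*Chl1*, an adhesion molecule of the L1 family, was at 1.93, 9.87, 6.34, 4.65 and 3.28 CPM in Pax7Cre mice. It was at 1.96, 3.21, 1.83, 3.44 and 2.59 CPM in miR-501ΔMP mice. The 3 highest mice were Pax7Cre, with Pax7Cre mouse 2 above the others, and Pax7Cre mouse 1 was below every miR-501ΔMP mouse but mouse 3. For *Chl1* the log2 fold change was -1.0 (SE 0.36) and -0.64 without Pax7Cre mouse 2. The exact permutation test gave p = 0.0952 for this gene, 0.135 for *Apod* and 0.0317 for *Scn7a*. Adipocyte markers moved with *Chl1* and *Apod* in some mice and not in others. Of 7 adipocyte genes 7 passed the filter, 0 had a log2 fold change above 0 (median -0.38, smallest unadjusted p = 0.328 in edgeR), and none was at 0 reads. Their summed level was 205 to 421 CPM in Pax7Cre and 229 to 345 CPM in miR-501ΔMP mice. The 2 highest were Pax7Cre mice 2 and 3 at 421 and 382 CPM, the mice highest in *Chl1* and *Apod*. Other mice went the other way. The lowest sum, 205 CPM, was in Pax7Cre mouse 4, where *Chl1* was at 4.65 CPM. In miR-501ΔMP mouse 3, the lowest in *Chl1*, the sum was the highest of its group at 345 CPM. On the mean log2 level miR-501ΔMP mouse 1, the lowest in *Apod*, was lowest at 1.76, while by the sum it was at 229 CPM, above Pax7Cre mouse 4. The part of adipocyte RNA in these differences was not tested. *Sox10* and *S100b*, which non-myelinating Schwann cells also express, had unadjusted p of 0.492 and 0.453 in edgeR.

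In edgeR the remaining nerve lists had 0 genes past the unadjusted threshold but for 1 axonal gene. The exact permutation test gave p = 0.0397 for *Btc* of the repair list, with a log2 fold change of 0.45 and an unadjusted p of 0.0838 in edgeR. Of 12 repair Schwann cell genes 10 passed the filter, of 9 nerve sheath genes 8, and of 12 genes that share *Ncam1*'s place on synapses and denervated fibers 11. With 1.05% of all genes past the threshold, counts of 0 in lists of this size are near the background. *Jun*, the factor that sets off the repair state, was at 85.0 ± 14.8 and 86.1 ± 9.02 CPM (SD, n = 5 each). *Tnc* and *Cryab*, the other abundant genes of that list and ones that muscle and stroma also express, had log2 fold changes of 0.35 (SE 0.34) and 0.40 (SE 0.31). *Slc2a1*, the glucose transporter of perineurium, had a log2 fold change of 0.26, while *Tjp1* and *Ntn4* were at -0.0055 and -0.06. *Chrna1*, *Chrnb1* and *Myog* had log2 fold changes of 0.12, 0.06 and 0.09.

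Most axon and motor neuron genes fell below the filter, and the amount of axon in the muscle was not measured. Of 13 axon and motor neuron genes 5 passed the filter, and *Chat* and *Slc18a3*, which define cholinergic motor neurons, had no read in any mouse. *Slc5a7*, the choline transporter of the same neurons, had 4 to 41 reads per mouse and passed the filter, with a log2 fold change of -0.41 (SE 0.37, unadjusted p = 0.284 in edgeR). *Prph*, an intermediate filament of peripheral neurons, was at 2.42, 0.791, 1.53, 1.32 and 1.27 CPM in Pax7Cre and at 2.68, 2.22, 1.37, 2.54 and 3.05 CPM in miR-501ΔMP mice. The groups overlapped, with Pax7Cre mouse 1 among the miR-501ΔMP values and miR-501ΔMP mouse 3 among the Pax7Cre values. The log2 fold change was 0.68 (SE 0.28, unadjusted p = 0.0307 in edgeR, adjusted p = 1.00) and the exact permutation p was 0.0635. It was the 1 gene of the 5 past the unadjusted threshold, where 0.382% of all genes were higher. With each mouse left out in turn, its unadjusted p stayed under 0.05 in 4 of 10 fits. *Uchl1*, *Tubb3* and *Stmn2*, which muscle stem cells or fibers can also express, had log2 fold changes of 0.34, 0.20 and -0.06.

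Genes of one cell type should rise and fall together from muscle to muscle if the amount of that cell type varies. Over the 10 mice, the 28 pairs of the 8 genes had Pearson correlations of log2(CPM + 0.5) between -0.64 and 0.72, with 8 pairs above 0 and 20 below. After Benjamini-Hochberg adjustment over the pairs, 0 passed 0.05 (smallest adjusted p = 0.445, permutation test with 100000 resamples), and 2 had an unadjusted p under 0.05 for r. *Sox10* and *Ncam1* had r = 0.72 and Spearman's rho = 0.76 (permutation p = 0.0159 and 0.0147), and r = 0.42 without the 2 mice farthest from the median. *Prx* and *Ncam1* had r = -0.64 and rho = -0.52 (permutation p = 0.0413 and 0.133), and r = -0.34 without the 2 farthest mice. *Pmp22* and *Sox10* passed the unadjusted threshold by rho alone, at r = -0.56 and rho = -0.66 (permutation p = 0.0941 and 0.0434, adjusted p = 0.706 and 0.608), with r = -0.67 without the 2 farthest mice. Among the myelin proteins, *Mbp* and *Prx* had r = 0.46, falling to -0.20 without the 2 farthest mice, *Mbp* and *Mag* r = -0.21, *Mbp* and *Pmp22* r = -0.28, *Prx* and *Mag* r = -0.08, and *Pmp22* and *Prx* r = 0.19. *Pmp22* and *Mag* had r = 0.41 and rho = 0.50 (permutation p = 0.239 and 0.143), and r = 0.61 without the 2 farthest mice. With the genotype means removed, r was 0.19 for *Pmp22* and *Mag*, 0.56 for *Mbp* and *Prx*, and -0.14 for *Pmp22* and *Prx*. It was then -0.18 for *Mbp* and *Mag*, -0.28 for *Mbp* and *Pmp22*, and -0.33 for *Prx* and *Mag*. These myelin pairs lay on both sides of 0, and none had an unadjusted p under 0.05 for r. At the low end of depth, *Sox10*, *Mag* and *S100b* had 23 to 72 reads per mouse.

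**Figure D4:**
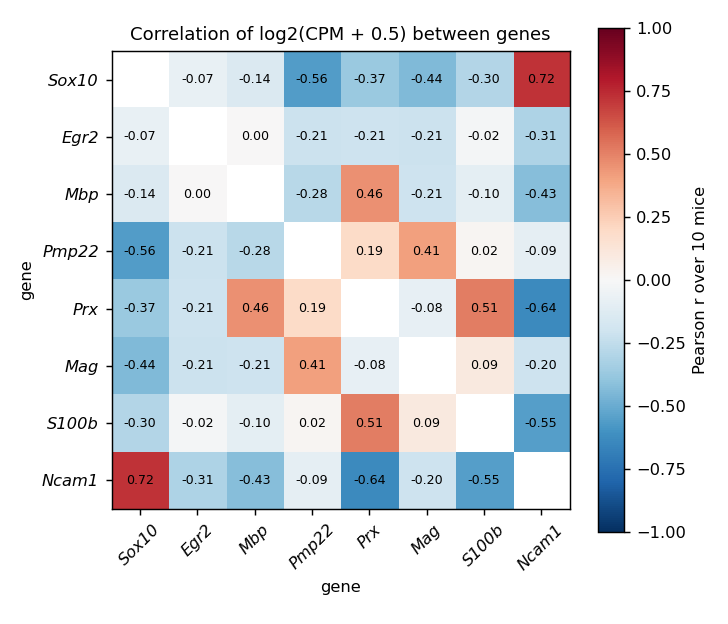
Pearson r of log2(CPM + 0.5) over the 10 mice for each pair of the 8 genes (red positive, blue negative, value printed in each square). The strongest pair is *Sox10* with *Ncam1* at 0.72 and the most negative *Prx* with *Ncam1* at -0.64. Most squares are below 0.

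The level of *Ncam1* went with that of regenerating fiber genes. In 64 relations of the 8 genes to 8 marker lists, a comparison added after the pairs were seen, 9 had an unadjusted p under 0.05 for r and 1 passed 0.05 after adjustment over the 64. *Ncam1* rose with the mean log2 level of 8 regenerating fiber and myogenic genes (r = 0.96, permutation p = 0.00019, adjusted p = 0.0122). Spearman's rho was 0.85 (permutation p = 0.00305, adjusted p = 0.0976). Without Pax7Cre mice 2 and 4, the 2 farthest from the median, r was 0.81. It was 0.98 within the Pax7Cre and 0.85 within the miR-501ΔMP mice, and 0.97 with the genotype means removed. Leaving out Pax7Cre mouse 2 (r = 0.91) or Pax7Cre mouse 4 (r = 0.94) took the adjusted p to 0.104, so the call needs both. Levels from 1 library share its depth and its composition, and the part of composition in this relation was not tested.

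*Mbp* had r = 0.64 and rho = 0.56 with mature fiber markers (permutation p = 0.0465 and 0.0977, adjusted p = 0.331 for r), and r = -0.20 without Pax7Cre mouse 2 and miR-501ΔMP mouse 4. *Ncam1* itself had r = -0.76 and rho = -0.35 with mature fiber markers (permutation p = 0.0154 and 0.330, adjusted p = 0.321 for r), and r = 0.09 without Pax7Cre mice 2 and 4. With endothelial markers it had r = -0.74 and rho = -0.71 (permutation p = 0.0122 and 0.0268, adjusted p = 0.321 for r), and r = -0.32 without the same mice. *Sox10* had r = 0.64 and rho = 0.59 with regenerating fiber markers (permutation p = 0.0387 and 0.0791, adjusted p = 0.328 for r), and r = 0.25 without Pax7Cre mice 2 and 3. With adipocyte markers it had r = -0.68 and rho = -0.62 (permutation p = 0.0250 and 0.0600, adjusted p = 0.321 for r), and r = -0.50 without those mice. *Prx* had r = -0.63 and rho = -0.52 with regenerating fiber markers (permutation p = 0.0410 and 0.135, adjusted p = 0.328 for r), and r = -0.34 without Pax7Cre mice 2 and 3. None of these 5 relations or that of *Mbp* passed the adjusted threshold, and each was nearer to 0, or of the other sign, without the 2 mice farthest from the median. For rho, their adjusted permutation p lay between 0.428 and 0.809.

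Of the 8 marker lists, *Egr2* had its highest correlation with the other immediate early genes. Its r with the mean log2 level of 9 of them was 0.69 and rho 0.87 (permutation p = 0.0218 and 0.00207, adjusted p = 0.321 for r and 0.0976 for rho), and r was 0.76 without miR-501ΔMP mice 3 and 5. Neither passed after adjustment. With endothelial markers *Egr2* had r = 0.65 and rho = 0.77 (permutation p = 0.0403 and 0.0126, adjusted p = 0.328 and 0.268). In miR-501ΔMP mouse 3, where *Egr2* was at 13.4 CPM, *Fosb*, named here after its values were seen, was at 9.20 CPM against 1.56 to 4.90 CPM in the other 9 mice. *Fos* was at 15.1 CPM there, within the range of the others, and the summed level of the 9 genes was 276 CPM, below that of 4 other mice, while their mean log2 level was 4.65, below that of Pax7Cre mouse 5 (4.82) alone. With *Mbp* the r of *Egr2* was 0.0011, and with *Pmp22*, *Prx* and *Mag* it was -0.21 each. Without miR-501ΔMP mouse 3 these were 0.32, 0.09, 0.29 and 0.16. Of the 9 immediate early genes 1 was past the unadjusted threshold: *Fos* had a log2 fold change of -0.61 (SE 0.19, unadjusted p = 0.00726, adjusted p = 1.00 in edgeR). Over all genes 0.666% were lower at that threshold.

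Many immediate early genes are switched on by serum response factor at a motif named the CArG box. RefSeq lists 5 *Egr2* promoters of 300 bases on GRCm38.p6, from 250 bases before a start site to 50 after, and 4 held a CArG box. They hold 2 different boxes, shown in capitals in 30 bases of the plus strand at chr10:67537484-67537513 and chr10:67537787-67537816, each beginning 72 bases before a start site.
Egr2 upstream box: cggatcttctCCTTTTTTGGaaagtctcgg
Egr2 downstream box: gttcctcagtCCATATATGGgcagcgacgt
Of all 32851 promoters in that table, 535 held a CArG box on either strand (1.63%). The promoters listed for *Pmp22* (4), *S100b* (1), *Prx* (1) and *Mag* (3) held none, and neither did the 1 promoter listed for each of the immediate early genes *Fos* and *Fosb*. Boxes outside these 300 bases were not looked for, so a promoter without a match may have a box farther away. *Egr1* had no promoter listed. A match of letters is not a bound site, and binding was not measured here.

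**Figure D5:**
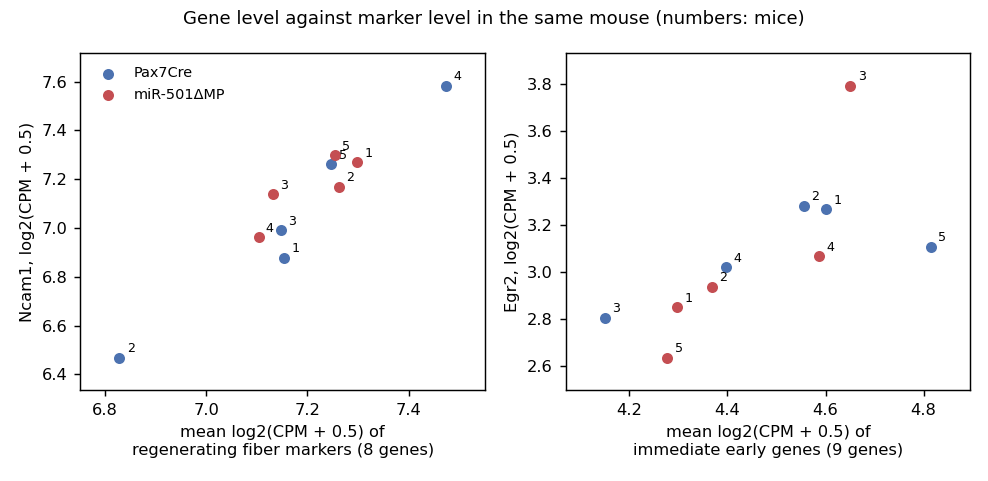
Level of *Ncam1* (left) and *Egr2* (right), as log2(CPM + 0.5), against the mean log2(CPM + 0.5) of the named marker list in the same mouse, blue for Pax7Cre and red for miR-501ΔMP, numbered by mouse. *Ncam1* rises with regenerating fiber markers (r = 0.96) with Pax7Cre mice 2 and 4 at the ends. *Egr2* is highest in miR-501ΔMP mouse 3.

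Over all genes tested, the 3 genes whose log2 levels most resembled those of each of the 8 across the 10 mice were not Schwann cell genes of the lists used here. *Ncam1* had the closest companions, *Cit* (r = 0.976), *Foxm1* (r = 0.975) and *Adcy7* (r = 0.974), and 1.17% of genes had an r over 0.9 with it. For the other 7 genes that share was between 0% and 0.0694%. *Mbp* was most like *Dennd6b* (r = 0.935), *Pfkfb4* and *Slco3a1*, and *S100b* most like *Tceal7* (r = 0.947), *Osgin2* and *A930003A15Rik*. *Sox10* was most like *Zbtb7c* (r = 0.921), *Focad* and *Patj*, and *Prx* most like *Mettl5* (r = 0.925), *Mia2* and *Samd5*. *Egr2* was most like *Nxn* (r = 0.897), *Zfp791* and *Ints10*, *Pmp22* most like *Cd300ld3* (r = 0.885), *Pja1* and *Tle6*, and *Mag* most like *Gpr160* (r = 0.861), *Tert* and *2310011J03Rik*. These are the highest of 14410 correlations over 10 mice and are given as a description.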

How the data were processed

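TA muscle mRNA of 10 mice was sequenced from stranded poly(A) libraries. The authors deposited raw counts of reads per Ensembl gene, 1 file per mouse, from reads aligned with STAR. The submitters' processing notes also name featureCounts, R 3.5.1 and GRCm38.p5. How strand and multi-mapping reads were treated in counting is not given in the sources used here. Genotypes were taken from the labels, which do not say that equal mouse numbers are pairs. Mice of 1 genotype differed by more than counting noise (chi-square per degree of freedom at least 9.51).

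Of 25700 genes, 25664 matched GENCODE M21 (GRCm38). TMM factors came from edgeR 4.0.16 (R 4.3.3), which kept 14410 genes (filterByExpr, minimum count 10, minimum total 15) and ran the quasi-likelihood test. CPM are TMM-normalized. Single genes also had an exact two-sided permutation test of CPM over 252 assignments. Correlations across mice used log2(CPM + 0.5) and 100000 resamples (numpy 2.4.6, scipy 1.17.1). DESeq2 1.42.0 and the alternatives of the closing section were also run. Steps were tested on simulated data. The 8 genes, the 15 other lists and their tests were chosen with earlier results of these data known. Named genes are the 8, *Erbb3* and *Ngfr*, up to 3 of the most abundant genes of each list with any at an unadjusted p under 0.05, and the 3 genes most like each of the 8. *Clcn5*, *Fosb*, *Chat*, *Slc18a3*, *Slc5a7*, *Btc* and *Ugt8a* are named outside this rule. Beside the lists in the report, 0 genes passed the unadjusted threshold among macrophage, fibroblast, adipocyte, endothelial, red blood cell, mature fiber and regenerating fiber markers, as their smallest unadjusted p was 0.0872. Some genes of the other lists are not reported here. Single cell data of the study were not used here.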

Additional observations from a re-analysis of the deposited data

Results flagged for a closer look

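In 20 groups of 5 mice, those of 10 genes in each genotype, 1 value was set off from the others of its group by more than Dixon's critical gap of 0.71 of the range, where chance gives about 1. It was *Egr2* in miR-501ΔMP mouse 3, at 13.4 CPM against 5.72 to 7.89 CPM in the other 4 mice of the group.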

How the results depend on the processing

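None of the 8 genes passed an adjusted p of 0.05 in edgeR or DESeq2 under any of 6 alternatives (DESeq2 size factors, no filter, a minimum of 10 counts for every mouse, the likelihood ratio test, DESeq2's Wald test, a replicate block) or in any of 10 fits that left out 1 mouse. Of 128 values 119 kept their sign and 9 turned. The log2 fold changes with 1 mouse left out ran from -0.036 to 0.16 for *Mbp*, -0.14 to -0.09 for *Pmp22*, 0.05 to 0.19 for *Sox10*, -0.38 to -0.05 for *S100b*, -0.29 to -0.14 for *Prx*, -0.28 to -0.13 for *Mag*, -0.24 to 0.12 for *Egr2*, -0.035 to 0.25 for *Ncam1* and -0.044 to 0.11 for *Ngfr*.

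With mouse number as a replicate block, *Egr2* was at -0.045. Equal numbers were not taken as pairs, since the correlations of their deviations ran from -0.30 to 0.34. That 3 of the 5 numbers matched best with themselves is a hint of pairing from the data, not the design. Under an unadjusted p of 0.05 the block gave 87 genes higher, against 55, and 102 lower. No filter gave 153 higher and 159 lower, and the minimum of 10 counts gave 36 higher. Leaving out 1 mouse gave 39 to 267 higher and 59 to 242 lower; the extremes were without miR-501ΔMP mouse 1 (39 and 59), without Pax7Cre mouse 2 (267 and 186) and without Pax7Cre mouse 4 (228 and 242). The cause was not tested. Relations to marker levels past 0.05, 1 in all, numbered 0 to 1 with 1 mouse left out, and 0 without Pax7Cre mouse 2 or 4. The relations and their alternatives were chosen after seeing the data. Reads per mouse (23 to 72) limit *Sox10*, *Mag* and *S100b*.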
